A study of Mus musculus with 12 samples.

Results

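The core circadian clock genes were followed across 12 Affymetrix arrays of mouse exocrine pancreas and of pancreatic organoids. The set held 10 genes, Arntl, Clock, Per1, Per2, Per3, Cry1, Cry2, Nr1d1, Nr1d2 and Dbp, and its members were the probe sets to which the platform annotation gives only that gene's symbol. They came to 23 probe sets of 45037 other than controls, and all 23 were among the 33460 that passed the filter on dim signal.

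The yDucts, the Ducts and the Acini were each hybridised as 4 biological replicas, A to D. yDucts were ductal organoids derived from acini of R26-rtTA; tetO-YAP S127A mice, in which doxycycline switches on an activated form of the Hippo pathway effector YAP. The R26 locus drives rtTA broadly, so induction was not restricted to acinar cells by the transgene, and the organoids were later kept without doxycycline. In separate lineage tracing with an acinar Ptf1a-CreERTM driver, the paper found that YAP-induced organoids kept the acinar label. Native duct organoids never carried that label. Ducts were organoids grown from native pancreatic duct fragments. Both kinds of organoid grew in Matrigel under the same medium with EGF, Noggin, FGF10, R-Spondin1 and gastrin. Acini were taken directly from adult pancreas without culture, so that culture and cell type change together against Acini and cannot be told apart. The genotype of the animals behind the Ducts and Acini arrays, the time of day of collection and any synchronisation of the cultures were not given in the sources used here. Nor do the labels say whether the replicas were separate animals or cultures. All p-values therefore measure the spread between these arrays.

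The mammalian clock is a feedback loop of transcription. The proteins of Arntl (BMAL1) and Clock bind E-box sequences as a heterodimer and activate the Period and Cryptochrome genes, whose products in turn block that heterodimer. A second loop runs through the nuclear receptors REV-ERBalpha and REV-ERBbeta, encoded by Nr1d1 and Nr1d2, which are activated through E-boxes and repress Arntl, whereas ROR receptors activate it through the same sites. Dbp, a PAR bZIP factor, is a direct target of the BMAL1:CLOCK heterodimer and acts on D-box sequences. Most of these transcripts oscillate over the day in peripheral tissues, the pancreas included. Each array samples a culture or a tissue once, so that a shift of phase, a loss of rhythm and a change of mean level cannot be told apart. In whole-sample RNA, fewer cells of a type and less RNA per cell cannot be told apart either.

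The RefSeq promoter table (GRCm38.p6) held 13 promoters of 9 of these genes, each running from 250 bases before the transcription start to shortly after it. The exact E-box CACGTG was found in 2 of the 13, belonging to Per1 and Cry1, which lay on opposite sides of zero in the expression comparisons. The exact D-box (TTATGTAA or TTACGTAA) was found in 1, belonging to Per3, in 2 copies. The core of the ROR and REV-ERB response element, AGGTCA, was found in 4 of the 13, belonging to Arntl, Clock, Per1 and Nr1d2. The cyclic AMP response element TGACGTCA was found in none. Both strands were searched, no match overlapped another motif, and over all 32851 promoters of the table the E-box was found in 7.15%, the D-box in 1.06%, the AGGTCA core in 16.3% and TGACGTCA in 1.79%. The 250 bases upstream of the start are shown for the genes whose window holds an E-box or a D-box and for Ciart, a repressor of BMAL1:CLOCK with 3 E-boxes there. Capitals mark the matched letters, as they read on the gene's strand (TGACCT in Per1 is the AGGTCA core on the other strand). Per1 lies at chr11:69098699-69098948, plus strand, Cry1 at chr10:85185055-85185304, minus strand, Per3 at chr4:151044666-151044915, minus strand, and Ciart at chr3:95882229-95882478, minus strand.
Per1: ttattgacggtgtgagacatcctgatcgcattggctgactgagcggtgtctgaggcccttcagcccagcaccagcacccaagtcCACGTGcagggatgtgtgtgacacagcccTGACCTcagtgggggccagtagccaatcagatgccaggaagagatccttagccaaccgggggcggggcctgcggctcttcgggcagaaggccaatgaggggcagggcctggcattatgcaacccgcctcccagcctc
Cry1: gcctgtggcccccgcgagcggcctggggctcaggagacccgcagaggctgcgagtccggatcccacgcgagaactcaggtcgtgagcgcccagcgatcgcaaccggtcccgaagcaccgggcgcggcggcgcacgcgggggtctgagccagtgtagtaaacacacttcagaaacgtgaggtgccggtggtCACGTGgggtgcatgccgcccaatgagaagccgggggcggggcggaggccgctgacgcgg
Per3: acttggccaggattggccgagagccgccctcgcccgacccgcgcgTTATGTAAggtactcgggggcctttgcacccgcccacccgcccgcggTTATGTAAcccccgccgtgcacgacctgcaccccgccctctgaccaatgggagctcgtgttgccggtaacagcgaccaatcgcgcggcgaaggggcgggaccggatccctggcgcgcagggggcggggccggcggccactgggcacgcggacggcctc
Ciart: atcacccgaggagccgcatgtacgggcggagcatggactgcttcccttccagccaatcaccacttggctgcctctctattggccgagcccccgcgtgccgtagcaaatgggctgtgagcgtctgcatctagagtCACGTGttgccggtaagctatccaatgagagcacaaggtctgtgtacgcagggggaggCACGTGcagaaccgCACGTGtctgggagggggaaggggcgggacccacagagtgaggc
The E-box begins at position -166 from the start in Per1 and at position -60 in Cry1. A match describes letters in a short window and says nothing of occupancy, which was not measured.

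Values are RMA expression levels on the log2 scale, and differences are differences of group means on that scale with the SE of limma's moderated model over all 12 arrays. A probe set was called at a Benjamini-Hochberg adjusted p under 0.05 over all 33460 probe sets tested. Each gene is represented by its brightest probe set, and the other probe sets are given after the genes. In yDucts against Acini, 9 of the 10 clock genes were called, 5 higher and 4 lower. Of all tested probe sets, 71.3% were called in that comparison (39.7% higher and 31.6% lower). In Ducts against Acini, 7 of the 10 were called, 3 higher and 4 lower, where the shares of all tested probe sets were 71.2% in either direction, 40.0% higher and 31.2% lower. Being called was thus the common outcome in both comparisons and is not a feature of the clock genes. The median size of the difference, whatever its sign, was 1.0 over the 10 genes and 0.91 over all tested probe sets in yDucts, and 1.12 and 0.91 in Ducts. The median signed difference was 0.63 over the 10 genes and 0.13 over all tested probe sets in yDucts, and -0.06 and 0.16 in Ducts. Both comparisons share the same 4 Acini arrays. The groups compared did not overlap for 65.9% of all tested probe sets in yDucts against Acini and 59.2% in Ducts against Acini. Between yDucts and Ducts that share was 12.0%. The split by direction depended on scaling. After quantile normalization and after cyclic loess, 1 clock gene was called higher (Arntl) and 4 lower (Per1, Cry2, Nr1d1 and Dbp) in yDucts, and 2 higher and 6 lower in Ducts. After median centring 6 were called higher and 3 lower in yDucts, and 4 higher and 4 lower in Ducts. Calls over all tested probe sets in yDucts were 10527 higher and 10075 lower after quantile normalization, and 10264 and 9932 after cyclic loess. In Ducts they were 10604 and 10031 after quantile normalization, and 10234 and 9971 after cyclic loess. After median centring they were 15041 and 8234 in yDucts, and 15111 and 8181 in Ducts. The split of the whole table thus shifted with scaling too.

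**Figure D1:**
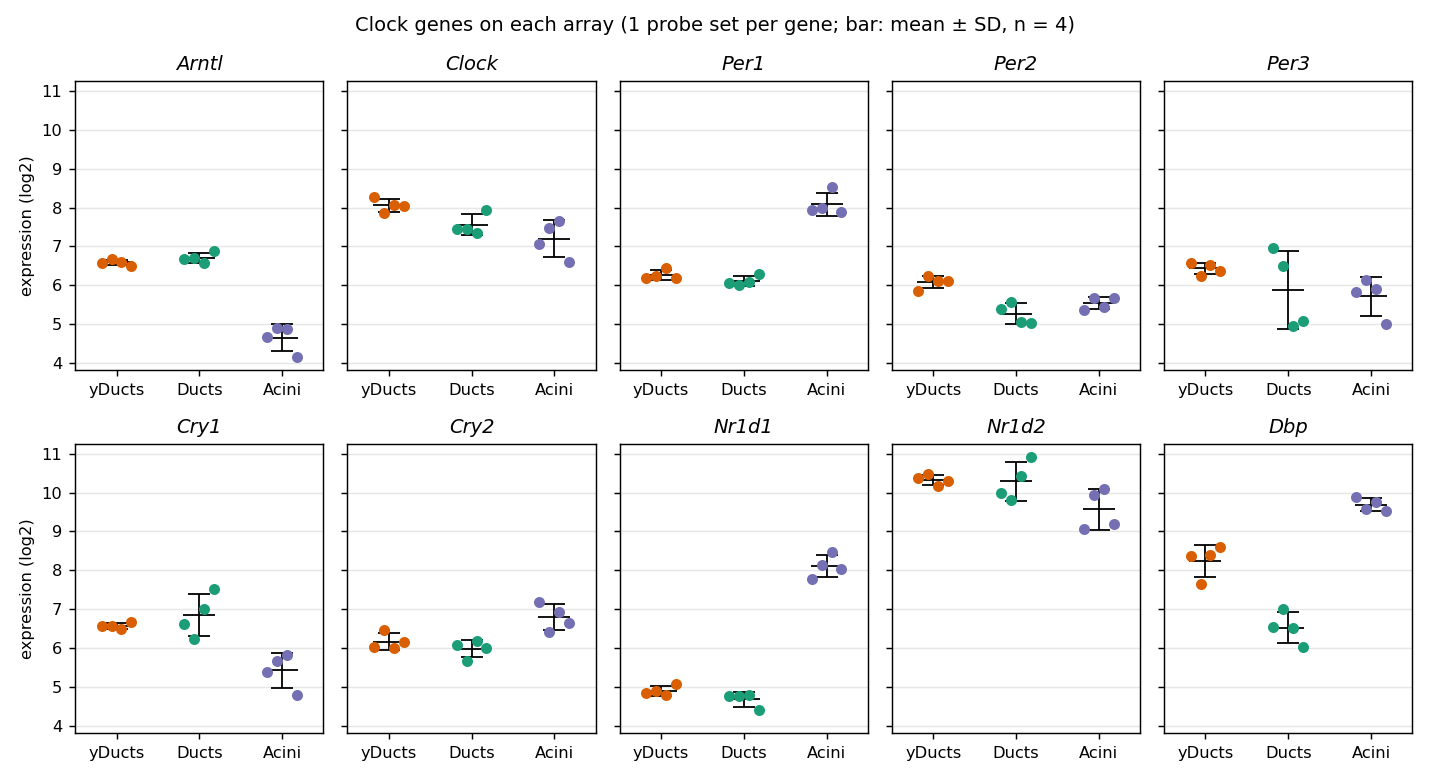
Expression (log2) of the 10 clock genes on each of the 12 arrays, 1 probe set per gene, with groups along the x axis and the mean ± SD of 4 arrays as bars. Nr1d1 and Per1 were far below the Acini arrays in both kinds of organoid and Arntl far above them, while the Dbp arrays fell into 3 separate ranges.

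The activator Arntl was 3.82-fold higher in yDucts and 4.15-fold higher in Ducts than in Acini. Its brightest probe set (1425099_a_at) read 6.57, 6.67, 6.61 and 6.50 in yDucts, 6.68, 6.69, 6.57 and 6.88 in Ducts, and 4.67, 4.91, 4.88 and 4.15 in Acini. No organoid array came within 1 log2 unit of an Acini array, and the yDucts and Ducts ranges overlapped. The difference was 1.94 ± 0.17 in yDucts (SE; limma adjusted p = 4.98e-07) and 2.05 ± 0.17 in Ducts (limma adjusted p = 2.98e-07). Arntl is read by a second probe set, 1457740_at, that ran the other way and is described below.

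Clock, which encodes the partner of BMAL1, was 1.82-fold higher in yDucts than in Acini. It read 8.26, 7.87, 8.06 and 8.04 in yDucts, 7.46, 7.46, 7.35 and 7.95 in Ducts, and 7.06, 7.48, 7.66 and 6.59 in Acini. The yDucts arrays all lay above the Acini arrays, whereas Ducts overlapped both. The difference was 0.86 ± 0.22 in yDucts (limma adjusted p = 0.00375) and 0.36 ± 0.22 in Ducts (limma adjusted p = 0.166). Both values depended on how the arrays were scaled. In yDucts the difference was -0.04 after quantile normalization and -0.17 after cyclic loess, and in Ducts it was called lower after both (-0.52 and -0.67; limma adjusted p = 0.0433 and 0.0106) and higher after median centring (0.57; limma adjusted p = 0.0426).

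Per1, a Period repressor that is also induced acutely by external signals, was 3.53-fold lower in yDucts and 3.92-fold lower in Ducts. Its probe set read 6.19, 6.23, 6.45 and 6.19 in yDucts, 6.07, 6.01, 6.08 and 6.30 in Ducts, and 7.95, 7.98, 8.53 and 7.88 in Acini. All organoid arrays lay below all Acini arrays. The difference was -1.82 ± 0.16 in yDucts (limma adjusted p = 5.61e-07) and -1.97 ± 0.16 in Ducts (limma adjusted p = 2.81e-07).

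Per2, the second Period gene, was 1.45-fold higher in yDucts by its brightest probe set and was not called in Ducts. It read 5.86, 6.23, 6.11 and 6.10 in yDucts, 5.40, 5.58, 5.06 and 5.04 in Ducts, and 5.37, 5.66, 5.45 and 5.68 in Acini. The yDucts arrays were the highest of the 3 groups, while Ducts and Acini overlapped. The difference was 0.54 ± 0.16 in yDucts (limma adjusted p = 0.00977) and -0.27 ± 0.16 in Ducts (limma adjusted p = 0.152). The yDucts difference was 0.05 after quantile normalization, 0.14 after cyclic loess and -0.02 when the 3 Per2 probe sets were averaged, none of them called. In Ducts, Per2 was called lower after quantile normalization (-0.62; limma adjusted p = 0.00590) and after cyclic loess (-0.67; limma adjusted p = 0.00366).

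Per3 gave no call in either comparison by its brightest probe set. It read 6.58, 6.25, 6.53 and 6.37 in yDucts, 6.96, 6.50, 4.96 and 5.07 in Ducts, and 5.82, 6.13, 5.90 and 4.99 in Acini. Ducts A lay above all yDucts arrays and Ducts B within their range, and Ducts C and D were near the lowest Acini array. The difference was 0.72 ± 0.40 in yDucts (limma adjusted p = 0.120) and 0.16 ± 0.40 in Ducts (limma adjusted p = 0.727). The Ducts value rested on which arrays were kept. It was -0.70 when Ducts A and B were left out (limma adjusted p = 0.0393), whereas leaving out Ducts C and D gave 1.02 (limma adjusted p = 0.00887).

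The Cryptochromes, flavoprotein repressors that act with the Period proteins, moved apart. Cry1 was 2.22-fold higher in yDucts and 2.69-fold higher in Ducts. It read 6.56, 6.56, 6.49 and 6.66 in yDucts, 6.62, 6.24, 6.99 and 7.53 in Ducts, and 5.39, 5.67, 5.83 and 4.79 in Acini. Every organoid array was above every Acini array, and the Ducts arrays were spread on both sides of yDucts. The difference was 1.15 ± 0.27 in yDucts (limma adjusted p = 0.00181) and 1.43 ± 0.27 in Ducts (limma adjusted p = 0.000358). After quantile normalization and after cyclic loess the yDucts difference was 0.69 and 0.44 and was not called (limma adjusted p = 0.0671 and 0.146), while the Ducts call held under all 26 alternatives.

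Cry2 was 1.54-fold lower in yDucts and 1.76-fold lower in Ducts. It read 6.03, 6.47, 5.99 and 6.16 in yDucts, 6.07, 5.66, 6.17 and 6.0 in Ducts, and 7.17, 6.41, 6.93 and 6.65 in Acini. Ducts lay wholly below Acini, whereas yDucts B stood just above Acini B. The difference was -0.63 ± 0.19 in yDucts (limma adjusted p = 0.00978) and -0.82 ± 0.19 in Ducts (limma adjusted p = 0.00188). The yDucts difference was -0.41 and was not called when each array was centred on its median (limma adjusted p = 0.0720). It was -1.41 in yDucts and -1.53 in Ducts after quantile normalization, and -1.35 in yDucts and -1.54 in Ducts after cyclic loess.

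Nr1d1 was 9.29-fold lower in yDucts and 10.8-fold lower in Ducts. On the deposited values this was the largest difference from Acini among the brightest probe sets of the 10 genes in both kinds of organoid, while after cyclic loess Dbp passed it in Ducts, at -4.25 against -3.97. It read 4.83, 4.88, 4.78 and 5.08 in yDucts, 4.76, 4.76, 4.80 and 4.39 in Ducts, and 7.78, 8.14, 8.47 and 8.04 in Acini. The organoid arrays stayed above the 30th percentile of their arrays, so the fold is a measured value and not a bound. The difference was -3.21 ± 0.17 in yDucts (limma adjusted p = 4.48e-09) and -3.43 ± 0.17 in Ducts (limma adjusted p = 2.54e-09). Over 26 alternatives it stayed between -3.79 and -3.00 in yDucts and between -3.98 and -3.22 in Ducts.

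Nr1d2, the paralog of Nr1d1, was 1.69-fold higher in yDucts and 1.64-fold higher in Ducts, calls that did not hold up to other settings. It read 10.37, 10.47, 10.18 and 10.29 in yDucts, 9.99, 9.81, 10.44 and 10.92 in Ducts, and 9.05, 9.94, 10.10 and 9.20 in Acini. The yDucts arrays were all above the Acini arrays, and Ducts overlapped Acini. The difference was 0.76 ± 0.27 in yDucts (limma adjusted p = 0.0237) and 0.72 ± 0.27 in Ducts (limma adjusted p = 0.0303). Both calls were lost without Acini A (0.58 in yDucts and 0.54 in Ducts) or without Acini D (0.63 in yDucts and 0.59 in Ducts), that of yDucts also without yDucts B (0.71), and that of Ducts also without Ducts C (0.67) or Ducts D (0.51). The sign turned after quantile normalization, at -0.06 in yDucts and -0.09 in Ducts.

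Dbp, the output factor, was lower in both kinds of organoid, 2.71-fold in yDucts and 8.97-fold in Ducts. Its brightest probe set (1438211_s_at) read 8.37, 7.65, 8.39 and 8.59 in yDucts, 6.53, 7.01, 6.52 and 6.03 in Ducts, and 9.88, 9.57, 9.77 and 9.53 in Acini. The 3 groups did not overlap, with yDucts between Ducts and Acini. The difference was -1.44 ± 0.23 in yDucts (limma adjusted p = 9.95e-05) and -3.16 ± 0.23 in Ducts (limma adjusted p = 9.11e-08). The second Dbp probe set (1418174_at) read 7.83, 6.87, 7.69 and 7.82 in yDucts, 5.74, 6.23, 5.01 and 5.22 in Ducts, and 8.13, 8.25, 8.84 and 8.11 in Acini. It kept the same order of groups, with differences of -0.78 in yDucts (limma adjusted p = 0.0279) and -2.78 in Ducts (limma adjusted p = 2.16e-06).

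**Figure D2:**
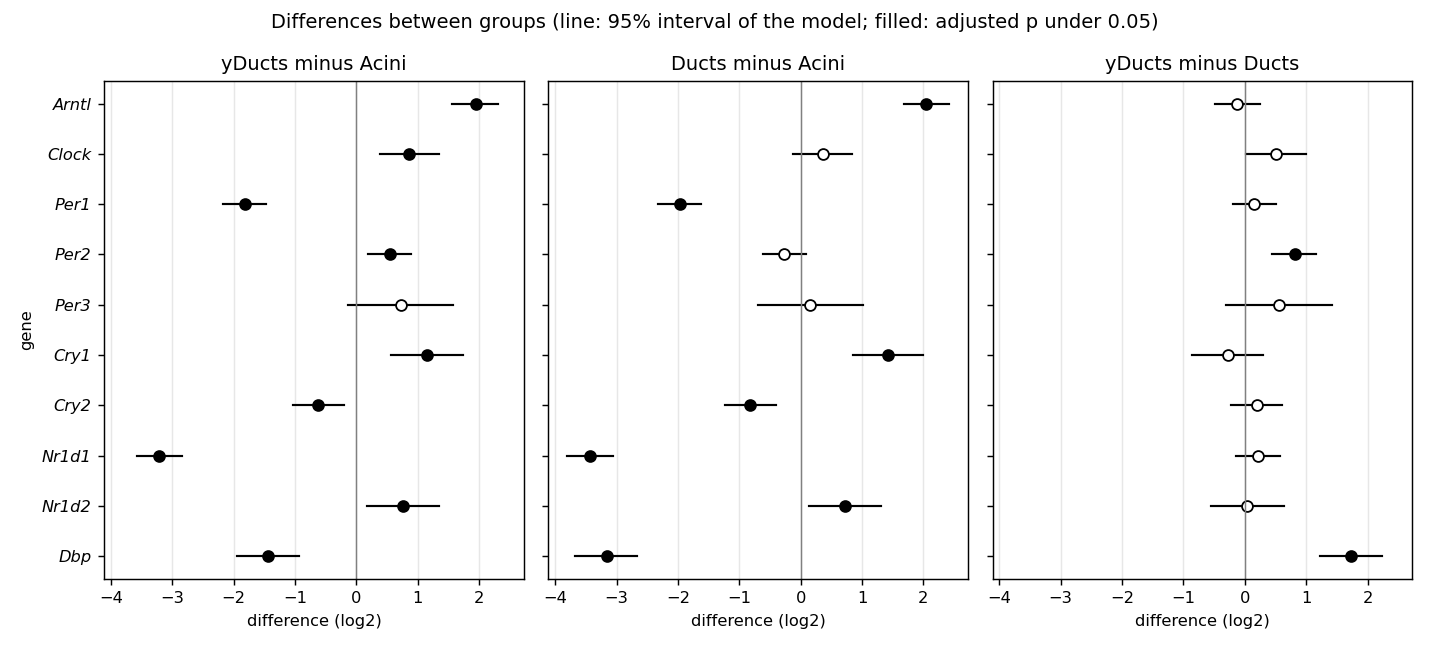
Difference between groups (log2, x axis) for the brightest probe set of each clock gene, in 3 panels, with the 95% interval of the model as a line and a filled point where the adjusted p was under 0.05. Nr1d1, Per1 and Dbp lay below zero and Arntl and Cry1 above it in both comparisons with Acini, and only Dbp and Per2 of these 10 genes were filled in yDucts minus Ducts.

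The 2 kinds of organoid were also compared directly, which asks whether organoids derived from acini through YAP carried the same clock transcripts as native ductal ones. Dbp was 3.31-fold higher in yDucts than in Ducts, with a difference of 1.73 ± 0.23 (SE; limma adjusted p = 0.00131), and its second probe set was 4.01-fold higher with a difference of 2.0 (limma adjusted p = 0.00229). All 4 yDucts arrays exceeded all 4 Ducts arrays on both probe sets, and the call on the brightest held under all 26 alternatives, at 1.48 to 1.98. By its brightest probe set, Per2 was 1.75-fold higher in yDucts, with a difference of 0.81 ± 0.16 (limma adjusted p = 0.0194), likewise without overlap. That call was lost under 8 of 26 alternatives, among them leaving out yDucts B, C or D or Ducts C or D, with differences of 0.49 to 0.80 and limma adjusted p up to 0.241. The other Per2 probe sets overlapped and were not called, 1417603_at at 0.35 (limma adjusted p = 0.633) and 1457350_at at 0.32 (limma adjusted p = 0.678). Between yDucts and Ducts, 1 of the 5 glucocorticoid-responsive genes was called higher (Fkbp5) and 1 lower (Sgk1), 1 of 11 tissue handling genes higher (Egr1) and 1 of 5 acinar markers higher (Amy1), and their part in these differences was not tested. Calls in this comparison made up 2.32% of all tested probe sets.

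None of the other 8 clock genes was called between yDucts and Ducts, so that 2 of 10 were called higher and 0 lower, where 2.32% of all tested probe sets were called (1.57% higher and 0.756% lower). By the limma model, 95% intervals of the difference were -0.49 to 0.25 for Arntl, -0.20 to 0.50 for Per1 and -0.15 to 0.58 for Nr1d1. The interval was wider for Per3, -0.30 to 1.42, and for Cry1, -0.86 to 0.30. For Clock it was 0.02 to 0.99, and for Nr1d2 -0.55 to 0.63.

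Several clock genes varied more between Ducts arrays than between yDucts arrays. Ducts A and B read 6.96 and 6.50 for Per3 and 5.40 and 5.58 for Per2, where Ducts C and D read 4.96 and 5.07 for Per3 and 5.06 and 5.04 for Per2. By the brightest probe sets, Ducts D had the highest Ducts value of Arntl, Clock, Per1, Cry1 and Nr1d2 and the lowest of Per2, Nr1d1 and Dbp. The SD of Per3 over Ducts arrays was 1.01, at the 96.5th percentile of the SDs of all tested probe sets in that group, against 0.15 in yDucts. Cry1 had an SD of 0.55 in Ducts and 0.07 in yDucts, and Nr1d2 of 0.50 in Ducts and 0.12 in yDucts. Over all tested probe sets the median SD was 0.14 in yDucts, 0.23 in Ducts and 0.38 in Acini. The split of Ducts into A with B and C with D was also seen for the transcription factor Klf10, a clock output, at 8.47, 8.97, 4.07 and 3.90 in Ducts against 8.24, 7.39, 8.59 and 7.98 in yDucts, and for Ciart, at 5.76, 4.96, 6.69 and 6.98 in Ducts against 4.77, 5.13, 4.99 and 5.75 in yDucts. The split was not particular to clock genes. Among the marker lists, the duct enzyme Car2 read 10.70, 11.78, 6.51 and 6.04 in Ducts, and of the immediate early genes Egr1 read 10.49, 10.39, 8.60 and 8.04 and Atf3 6.54, 6.81, 8.66 and 8.88. For other clock genes the SD in Ducts lay below the median of all tested probe sets. It was at the 20.5th percentile for Arntl, the 40.9th for Nr1d1 and the 48.7th for Cry2. Nothing in the labels sets these Ducts arrays apart.

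Over all 23 probe sets, 6 were called higher and 7 lower in yDucts against Acini, and 3 higher and 9 lower in Ducts against Acini, so that 13 of 23 were called in yDucts, where 71.3% of all tested probe sets were, and 12 of 23 in Ducts, where 71.2% were. The probe sets of a gene did not always run together. Arntl probe set 1457740_at read 4.67, 4.21, 4.50 and 4.39 in yDucts, 4.45, 4.46, 4.19 and 4.11 in Ducts, and 4.54, 5.86, 5.58 and 4.71 in Acini. It was lower, at -0.73 ± 0.26 in yDucts (limma adjusted p = 0.0231) and -0.87 ± 0.26 in Ducts (limma adjusted p = 0.00917), opposite in sign to 1425099_a_at, mainly through Acini B and C. Averaged over both probe sets, Arntl was higher by 0.60 in yDucts and 0.59 in Ducts and was still called. Which transcripts each probe set reads was not examined, so the rise of Arntl is a statement about 1425099_a_at.

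The 3 other Clock probe sets gave 1 call in 6 comparisons with Acini, 0.66 for 1418660_at in yDucts (limma adjusted p = 0.0439). Of the 2 other Per2 probe sets, 1417603_at was lower in Ducts, at -0.82 (limma adjusted p = 0.00736), and read -0.47 in yDucts (limma adjusted p = 0.0922). The 5 other Per3 probe sets had levels of 3.03 to 4.49 in every group mean, near the dim end of the arrays. Among them 1421086_at was lower in yDucts, at -0.69 (limma adjusted p = 0.00183) and 1460662_at in Ducts, at -0.75 (limma adjusted p = 0.00651). In Ducts 1421086_at lay below the 30th percentile on all 4 arrays, so that it has only a bound there, at least 1.68-fold lower than in Acini (limma adjusted p = 0.000190). Nr1d2 probe set 1416959_at was not called, at 0.46 in yDucts and 0.20 in Ducts.

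**Figure D3:**
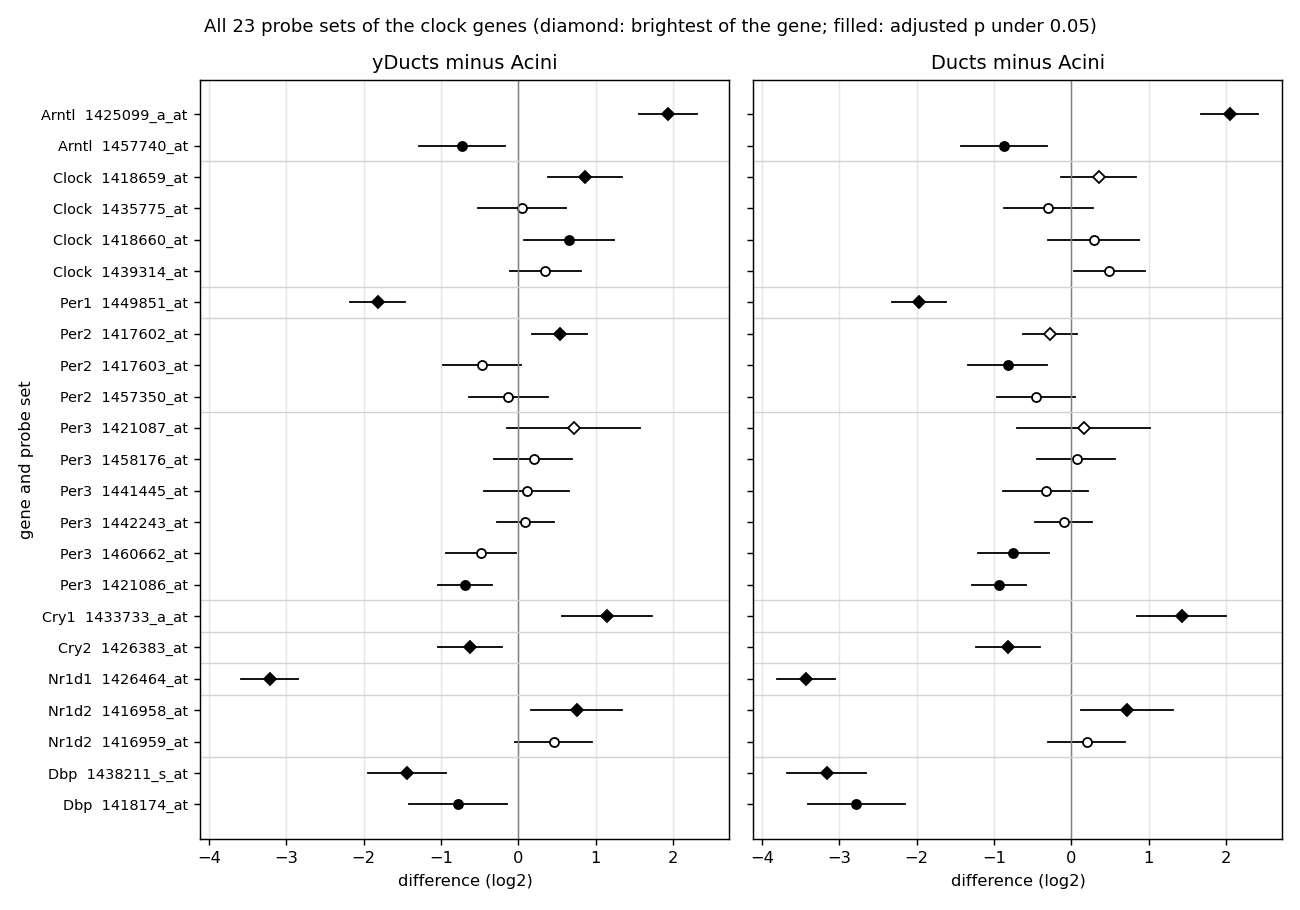
Difference from Acini (log2, x axis) for all 23 probe sets of the clock genes, grouped by gene along the y axis, with the 95% interval as a line. Diamonds are the brightest probe set of each gene and filled symbols had an adjusted p under 0.05. Both Dbp probe sets lay below zero, whereas the 2 Arntl probe sets lay on opposite sides of it.

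Beyond these genes, 24 further clock genes, from a list drawn from general knowledge of the pathway, had a probe set with only their symbol. In yDucts against Acini 8 were called higher and 9 lower, and in Ducts against Acini 7 higher and 8 lower. With 71.3% of all tested probe sets called in yDucts and 71.2% in Ducts, the 17 of 24 called in yDucts and 15 of 24 in Ducts are no result about the list. None of the 24 was called between yDucts and Ducts, where 2.32% of all tested probe sets were, so that is no result either. All 3 kinases that phosphorylate clock proteins were higher in both kinds of organoid. Csnk1e, casein kinase 1 epsilon, was higher by 2.28 in yDucts and 2.18 in Ducts, Gsk3b by 2.09 in yDucts and 2.07 in Ducts, and Csnk1d, casein kinase 1 delta, by 1.43 in yDucts and 1.65 in Ducts, with limma adjusted p of at most 4.08e-05. Of their 11 other probe sets, 1456727_a_at of Csnk1d was lower in yDucts, at -0.41 (limma adjusted p = 0.0279). After cyclic loess the Csnk1d difference in yDucts was 0.34 and was not called (limma adjusted p = 0.0802).

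Of the other PAR bZIP factors, Tef was lower, at -0.53 in yDucts (limma adjusted p = 0.0160) and at -1.15 in Ducts (limma adjusted p = 6.72e-05). Hlf was lower, at -0.85 in yDucts (limma adjusted p = 0.0170) and at -1.02 in Ducts (limma adjusted p = 0.00624). Nfil3, which competes with them for D-boxes, was lower, at -0.87 in Ducts (limma adjusted p = 0.00407) and read -0.50 in yDucts (limma adjusted p = 0.0628). The yDucts minus Ducts differences of 0.62 for Tef (limma adjusted p = 0.101) and 0.17 for Hlf (limma adjusted p = 0.944) had the sign of that of Dbp and were not called. The Hlf call in yDucts was lost under all 3 other scalings (-0.64 to -0.28; limma adjusted p of 0.0658 to 0.445) and that in Ducts after quantile normalization (-0.67; limma adjusted p = 0.117) and cyclic loess (-0.47; limma adjusted p = 0.202), and the Tef call in yDucts was lost with median centring (-0.32; limma adjusted p = 0.128). Nfil3 in yDucts was called lower after quantile normalization (-1.39) and cyclic loess (-1.56). Hlf was dim, with means of 3.40 in yDucts, 3.23 in Ducts and 4.25 in Acini, and passed the 30th percentile on only 2 Ducts arrays.

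The E-box repressors Bhlhe41 and Ciart were lower in yDucts, at -1.01 (limma adjusted p = 0.00187) and -1.33 (limma adjusted p = 0.00696). In Ducts, Bhlhe41 was lower, at -0.80 (limma adjusted p = 0.00795), and Ciart had a difference of -0.39 (limma adjusted p = 0.366). Bhlhe41 was dim, with means of 3.30 in yDucts, 3.51 in Ducts and 4.31 in Acini. The 30th percentile of the arrays was 3.20 in yDucts, 3.21 in Ducts and 3.72 in Acini. After quantile normalization and cyclic loess the Bhlhe41 calls were lost, at -0.64 and -0.44 in yDucts (limma adjusted p = 0.0549 and 0.111) and -0.46 and -0.25 in Ducts (limma adjusted p = 0.149 and 0.351), while Ciart in Ducts was called lower, at -1.09 and -0.95 (limma adjusted p = 0.0203 and 0.0420). Bhlhe40, the paralog of Bhlhe41, was not called in either, at 0.62 in yDucts and 0.58 in Ducts. Neither of the paralogs of the activators, Npas2 and Arntl2, was called by its brightest probe set. The other Arntl2 probe set, 1429688_at, was higher by 1.66 in yDucts (limma adjusted p = 3.15e-05) and 2.31 in Ducts (limma adjusted p = 1.72e-06). Its mean over all arrays was 5.44 against 5.56 for the brightest. Within the organoids it was the brighter one, at 5.78 against 5.45 in yDucts and 6.42 against 5.40 in Ducts. The other Npas2 probe set, 1421037_at, was higher by 0.77 in yDucts (limma adjusted p = 0.0116). Rora, an activator of Arntl, was lower, at -0.73 in yDucts (limma adjusted p = 0.0311) and read -0.38 in Ducts (limma adjusted p = 0.236) by its brightest probe set. The yDucts call was lost with median centring (-0.51; limma adjusted p = 0.123), and in Ducts it was called lower after quantile normalization (-1.25; limma adjusted p = 0.000826) and cyclic loess (-1.37; limma adjusted p = 0.000326). Of the 8 other Rora probe sets, 6 were called lower in yDucts and 4 in Ducts, those in Ducts at -1.43 to -0.78, and none was called higher. Lower calls made up 31.6% of all tested probe sets in yDucts and 31.2% in Ducts.

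Of 5 clock outputs, Usp2, a deubiquitinating enzyme with rhythmic transcripts, was 12.3-fold lower in yDucts and 15.5-fold lower in Ducts. It read 5.12, 4.65, 4.89 and 5.19 in yDucts, 5.0, 4.79, 4.32 and 4.42 in Ducts, and 9.31, 7.89, 8.99 and 8.16 in Acini. Every organoid array lay below every Acini array, whereas yDucts and Ducts overlapped, and the difference was -3.62 in yDucts (limma adjusted p = 1.78e-07) and -3.96 in Ducts (limma adjusted p = 8.52e-08). Noct, which encodes nocturnin, was lower, at -1.57 in yDucts and -1.38 in Ducts. Wee1, a kinase that restrains entry into mitosis, was lower by its brightest probe set, at -0.87 in yDucts and -1.35 in Ducts. Its other probe set, 1416774_at, was not called, at 0.46 in yDucts (limma adjusted p = 0.254) and -0.06 in Ducts (limma adjusted p = 0.89). Nampt, the rate-limiting enzyme of NAD salvage, ran the other way and was 6.09-fold higher in yDucts and 6.62-fold higher in Ducts (limma adjusted p = 9.84e-07 in yDucts and 6.82e-07 in Ducts). Sirt1, an NAD-dependent deacetylase that acts on clock proteins, was higher by 1.48 in yDucts (limma adjusted p = 0.00300) and 1.57 in Ducts (limma adjusted p = 0.00198), and the RNA-binding cofactor Nono was higher by 1.48 in yDucts and 1.36 in Ducts.

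**Figure D4:**
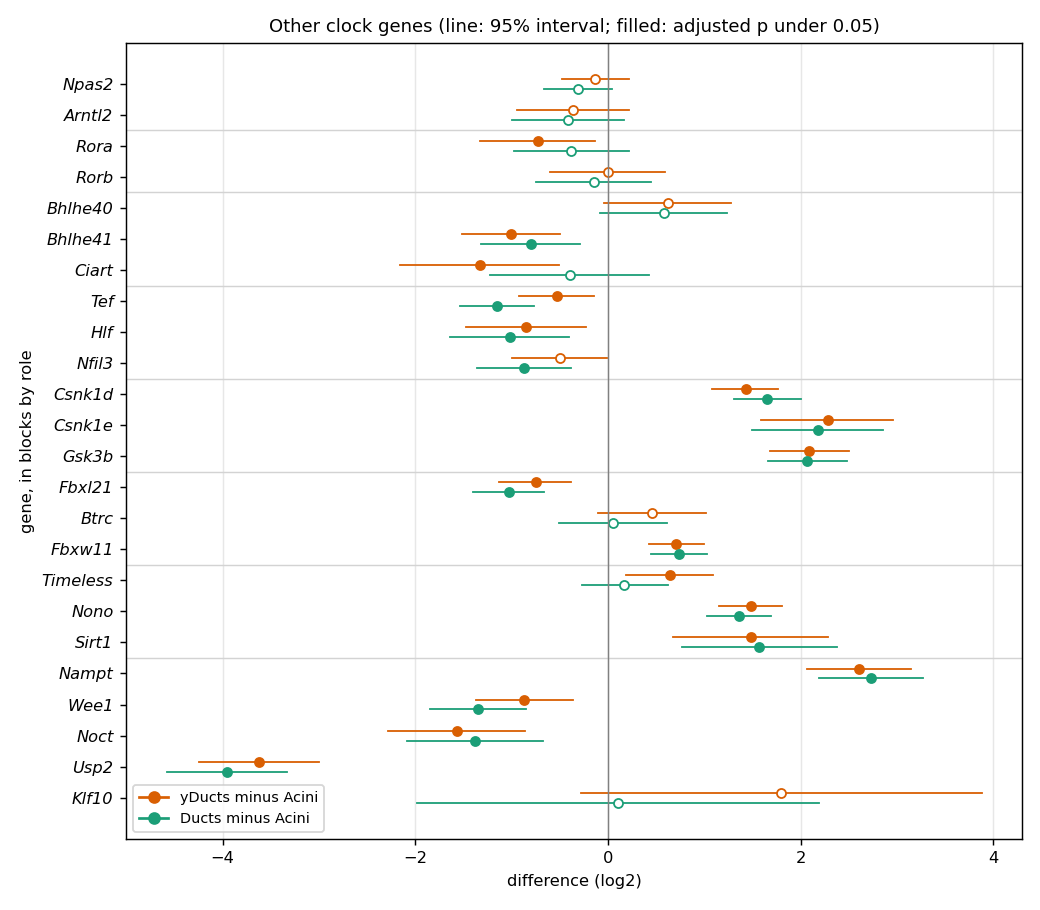
Difference from Acini (log2, x axis) of 24 further clock genes, 1 probe set per gene, in blocks by role along the y axis, with the 95% interval as a line and a filled point where the adjusted p was under 0.05. The kinases Csnk1d, Csnk1e and Gsk3b and the output Nampt lay above zero, and Usp2 lay furthest below it.

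Several features of the samples differed along with the clock genes, and their part in these results was not tested. The 11 immediate early and heat shock genes listed as signs of tissue handling had mean levels per array of 8.63 to 8.82 in yDucts, 8.11 to 8.80 in Ducts and 10.61 to 11.14 in Acini, with 7 called lower and 1 higher in yDucts and 9 lower in Ducts. The 5 glucocorticoid-responsive genes ran at 6.97 to 7.56 in yDucts, 7.25 to 7.60 in Ducts and 8.60 to 9.12 in Acini, with 3 lower in yDucts and 4 lower in Ducts. Of all tested probe sets, 31.6% were called lower in yDucts and 31.2% in Ducts, and 71.3% and 71.2% in either direction. Acinar markers (5 of 6 measured) stood at 4.07 to 4.19 in yDucts, 3.56 to 4.14 in Ducts and 11.98 to 12.12 in Acini, as the labels would have it. Duct markers (4 of 5 measured) stood at 9.86 to 10.44 in yDucts, 9.22 to 11.59 in Ducts and 6.15 to 6.70 in Acini. In each kind of organoid 3 of them were called higher and Sox9 was not called by its brightest probe set. The 4 endothelial markers ran at 3.42 to 3.61 in yDucts, 3.48 to 3.71 in Ducts and 6.50 to 7.11 in Acini, the 4 stromal at 3.49 to 3.55 in yDucts, 3.30 to 3.56 in Ducts and 7.32 to 8.05 in Acini, and the 4 endocrine at 3.46 to 3.62 in yDucts, 3.39 to 3.55 in Ducts and 8.53 to 9.43 in Acini. In each kind of organoid 2 of the endothelial, 1 of the stromal and 2 of the endocrine markers had a mean below the 30th percentile of the arrays. The 4 immune markers ran at 4.08 to 4.26 in yDucts, 3.82 to 4.66 in Ducts and 5.48 to 5.60 in Acini. In each kind of organoid 3 of them were called lower and 1, Cd68, higher. The 3 blood and fat markers ran at 2.56 to 2.75 in yDucts, 2.50 to 2.59 in Ducts and 5.47 to 5.98 in Acini. The difference between the 3′ and 5′ control probe sets of Gapdh, a sign of RNA integrity or labelling, was -0.15 ± 0.02 in yDucts, -0.04 ± 0.04 in Ducts and 1.54 ± 0.29 in Acini (SD, n = 4 each), and the 30th percentile of the array was 3.20 in yDucts, 3.21 in Ducts and 3.72 in Acini.

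Since the arrays of Acini had another distribution of values, the clock genes were also read under 3 other scalings. The median difference of all tested probe sets in yDucts against Acini was 0.13 as deposited, 0.35 after median centring, -0.02 after quantile normalization and 0 after cyclic loess. Arntl, Per1, Nr1d1 and Dbp kept both direction and call against Acini under each of them in yDucts and in Ducts. Arntl ranged over these scalings from 1.35 to 2.15 in yDucts and from 1.47 to 2.26 in Ducts, and Dbp from -2.53 to -1.22 in yDucts and from -4.25 to -2.96 in Ducts. Clock and Nr1d2 turned sign under both quantile normalization and cyclic loess in both comparisons. Per3 turned sign under both in Ducts only, at -0.29 and -0.43, without a call. Among the further genes, by their brightest probe sets, the kinases, Nampt and Sirt1 stayed above zero under all 4 scalings. Sirt1 was without a call after cyclic loess, at 0.75 in yDucts and 0.84 in Ducts. Usp2, Noct, Wee1 and Tef stayed below zero under all 4 scalings. Fbxw11, a ubiquitin ligase subunit, was called higher at 0.71 in yDucts and 0.74 in Ducts. After cyclic loess it was called lower in yDucts, at -0.32 (limma adjusted p = 0.0432), and read -0.31 in Ducts (limma adjusted p = 0.0541). Its other probe sets were all called higher in both comparisons as deposited, with 1425462_at at 2.14 in yDucts and 2.23 in Ducts. Only the brightest was read under the other scalings.

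**Figure D5:**
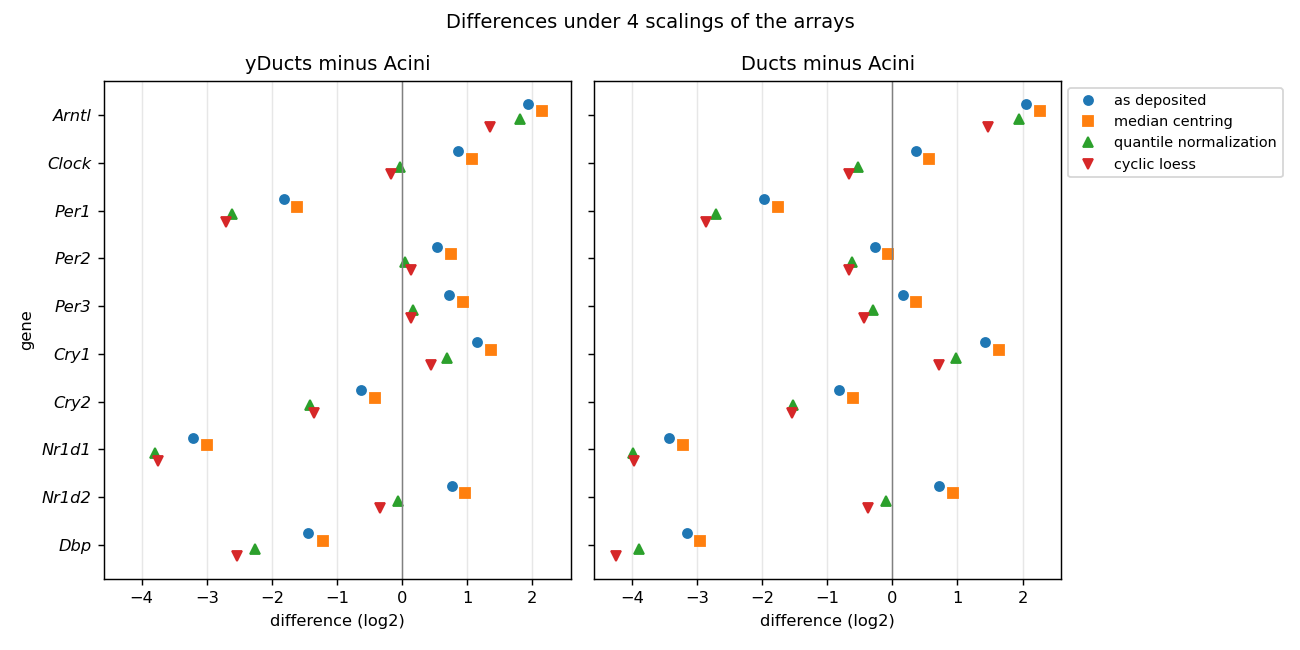
Difference from Acini (log2, x axis) of the 10 clock genes under 4 scalings of the arrays, each with its own marker, for yDucts in the left panel and Ducts in the right panel. The markers of Arntl, Per1, Cry1, Cry2, Nr1d1 and Dbp stayed on 1 side of zero. Those of Clock and Nr1d2 lay on both, as did those of Per3 in the right panel.

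The genes whose pattern over the 12 arrays lay nearest to that of Dbp and of Arntl were sought among 14998 genes, as the root mean square distance between log2 values centred on each gene's own mean. For Dbp they were Pbx3 (0.361), Fgfr1 (0.388), Sardh (0.469), Tacc1 (0.479) and Gstm7 (0.480). Each of these, like Dbp, had its lowest group mean in Ducts, its highest in Acini and yDucts between. For Arntl they were Dnm1l (0.096), Syncrip (0.104), Cltc (0.107), Ino80d (0.117) and Pdpk1 (0.119), all with yDucts and Ducts near each other and Acini lower. Both lists were picked by closeness over these same arrays, so the shared order of groups follows from the choice. No other clock gene was among the 5 nearest to either, and with 5 taken of 14998 that is no result.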

How the data were processed

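Total RNA of 12 samples was hybridised to Affymetrix mouse arrays. The deposited values are log2 expression levels that, per the submitters' processing notes, the authors computed with RMA, whose usual steps are background correction, quantile normalization and probe summary. The table holds 45101 probe sets. The sources used here give neither the version of RMA nor whether all arrays were normalized in 1 run. Probe sets were named from the platform annotation: of 45037 other than controls, 34945 had 1 gene symbol, 932 several and 9160 none, and only the first were named. Probe sets above the 30th percentile of their array on at least 4 arrays were tested (33460) with limma 3.58.1 in R 4.3.3, as a group-means model over 12 arrays with 9 residual and 4.19 prior degrees of freedom, two-sided, with Benjamini-Hochberg adjustment over all probe sets tested. The script was tested on simulated data. A gene was represented by its probe set with the highest mean. No read depth exists for arrays, and the number of arrays limits the precision. All 10 clock genes were reported, with other clock genes by role and the 5 nearest patterns for Dbp and Arntl; members and lists were chosen with earlier results of these data known. Alternatives covered the filter, the scaling, the choice of probe set, the replica letter as a block, array weights, a variance trend, the arrays in the fit and arrays left out. Promoters came from RefSeq (GRCm38.p6).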

Additional observations from a re-analysis of the deposited data

Results flagged for a closer look

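Of 141 sets of 4 arrays (a probe set in a group), 11 held 1 array far from the other 3 by Dixon's criterion, where chance gives about 1 in 20, or 7.05. Among the clock genes, Per1 stood apart at 6.45 in yDucts C (others 6.19 to 6.23) and at 8.53 in Acini C (others 7.88 to 7.98). Nr1d1 was 4.39 in Ducts D (others 4.76 to 4.80). Dbp probe set 1418174_at was 6.87 in yDucts B (others 7.69 to 7.83). Clock probe set 1418660_at was 5.80 in Acini A (others 7.02 to 7.18), and Per2 probe set 1457350_at was 3.73 in Ducts C (others 4.13 to 4.18). Among the further genes, Btrc was 5.93 in yDucts B (others 5.14 to 5.18), Nono 12.18 in yDucts B (others 11.98 to 11.99), Nfil3 6.61 in Ducts B (others 7.57 to 7.76), Tef 8.87 in Acini D (others 9.24 to 9.27) and Gsk3b 8.01 in Acini C (others 7.21 to 7.34). No cause was tested for any of them.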

How the results depend on the processing

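Each result was recomputed under 26 alternatives. The calls of Arntl, Per1, Nr1d1 and Dbp against Acini, of Cry1 and Cry2 in Ducts against Acini and of Dbp in yDucts against Ducts were kept under all of them. Clock genes called in yDucts against Acini were 5 after quantile normalization and 5 after cyclic loess, 1 higher and 4 lower in each. Calls over all tested probe sets were 10527 higher and 10075 lower after quantile normalization, and 10264 and 9932 after cyclic loess. There, Clock read -0.04 and -0.17 in yDucts and -0.52 and -0.67 in Ducts, Nr1d2 -0.06 and -0.34 in yDucts and -0.09 and -0.38 in Ducts, and Per3 in Ducts -0.29 and -0.43. With the mean of a gene's probe sets, Per2 read -0.02 and Per3 -0.01 in yDucts against Acini, Per3 -0.31 in Ducts against Acini and Arntl 0.01 in yDucts against Ducts. With the probe set of largest interquartile range, Clock read -0.14 in yDucts against Ducts. The cause of these shifts was not tested.

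Entering 1 probe set per gene, or the mean of a gene's probe sets, lowered the number of features tested, and the counts called over the table were 11431 and 10822 in yDucts against Acini, 11364 and 10836 in Ducts against Acini, and, for 1 probe set per gene, 470 in yDucts against Ducts. In that last comparison 777 probe sets were called in all. The count was 446 after quantile normalization, 11748 with array weights, 4064 without Ducts A and B, 434 without Ducts C and D, and 357 to 1520 with 1 array left out, lowest without yDucts A and highest without Ducts B. Clock genes called there numbered 1 after quantile normalization, 1 with the mean of probe sets, 5 with array weights (Clock, Per3 and Cry1 besides Dbp and Per2), 1 without Ducts C and D, and 1 to 2 with 1 array left out. Array weights gave Per3 -0.51 in Ducts against Acini and Nr1d2 -0.21 in yDucts against Ducts. Without Ducts A and B, Per3 read -0.70 in Ducts against Acini and Nr1d2 -0.35 in yDucts against Ducts. Without Ducts C and D, Per3 read -0.30 and Cry1 0.14 in yDucts against Ducts. With 1 array left out, Per3 in Ducts against Acini ran from -0.20 to 0.47 and Nr1d2 in yDucts against Ducts from -0.12 to 0.25.

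The replica letters did not pair the samples. Of 12 same-letter pairs, 1 had a correlation of deviations over 0.1 (range -0.30 to 0.11). Between Ducts and yDucts, pairs of different letters reached 0.31 (Ducts B with yDucts A) and -0.30 (Ducts D with yDucts C). Ducts A and B correlated above zero with yDucts A and C and below zero with yDucts B and D. For Ducts C and D the signs were the reverse. What these arrays share was not tested. With the replica letter as a replicate block, 23494, 23439 and 614 probe sets were called in yDucts against Acini, Ducts against Acini and yDucts against Ducts, and the clock genes called stayed at 9, 7 and 2. With 4 arrays per group, differences smaller than the array spread could not be resolved, which bears most on Per3 and Nr1d2 in Ducts. Dim probe sets carry less information, as for 5 of the 6 Per3 probe sets.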
